A study of Artemisia annua with 12 samples.

Results

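This account concerns the change in leaf transcripts of Artemisia annua between 2 and 4 h under supplementary UV-B lamps. It rests on 6 of the 12 RNA-seq libraries of the series, the 3 from the 4 h harvest and the 3 from the 2 h harvest, which were chosen by harvest label alone. The remaining libraries, 3 from 0 h and 3 from 6 h, served to estimate the spread and as separate harvests beside the comparison. All plants were wild type, of the high-artemisinin cultivar Huhao 1, 6 weeks old, and grown in a greenhouse with 16 h of light and 8 h of dark. By the labels, the groups differed in the hours spent under added narrowband lamps giving 1.5 µmol of UV-B per square metre and second. Each library was prepared from leaves of 3 seedlings mixed together, so differences between single plants cannot be seen. Unexposed seedlings harvested at 2 or 4 h are not among the samples analysed here, and hours of UV-B and time of day cannot be told apart. The p-values measure the spread between these mixes.

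Plants sense UV-B chiefly through the photoreceptor UVR8, which, as worked out in Arabidopsis, binds the ubiquitin ligase COP1 and so stabilises the transcription factor HY5. Genes of flavonoid synthesis, DNA photorepair and light signalling follow at different delays, and some early transcripts are short-lived. A transcript level reflects synthesis and decay together, and a level can fall no faster than the transcript decays. Artemisia annua is grown for artemisinin, an antimalarial terpenoid made in the glandular trichomes of the leaf. No gene names accompany the identifiers in the deposited table, so neither these pathways nor marker genes of leaf tissue could be looked up, and genes are described by level, direction, size and course.

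Values are the authors' normalised expression; the unit is not named and the read depth is unknown. Library sums at 2 and 4 h lay between 851400 and 860280. Over the 25841 tested genes, libraries of the same harvest correlated at r = 0.976 to 0.981, and libraries at 2 h correlated with those at 4 h at r = 0.906 to 0.913, across genes, which are not independent replicates. Replicate 1 at 2 h stood apart for abundant transcripts. Over the 89 genes with a mean of 1000 or more, the median coefficient of variation at 2 h was 4.32% with it and 1.35% without it, and at 4 h it was 1.89%. The number of genes reaching a value of 1 was 23488 ± 79.6 (SD, n = 3) at 2 h and 23557 ± 29.7 at 4 h, with overlapping libraries (two-sided p = 0.2 in an exact permutation test). The sign of that small difference, 4 h minus 2 h, turned with median-ratio scaling of the libraries, to -211 genes. It was 68.3 genes with all libraries, 98.2 without replicate 1 at 2 h and 23.2 without replicate 3 at 2 h.

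From the second harvest to the third, 8031 genes rose, 5034 fell and 12776 did not pass the test (limma across all tested genes, Benjamini-Hochberg adjusted p under 0.05). Called genes thus made up 50.6% of those tested, 31.1% higher and 19.5% lower. Most of the changes were small: 10283 of the called genes (78.7%) changed less than 2-fold on the log2(value + 1) scale. The median change was 1.46-fold among genes that rose and 1.54-fold among genes that fell, beside a median log2 change of 0.09 over all tested genes. The libraries of the 2 harvests did not overlap for 14901 genes (57.7%), and 12705 of the called genes were among these. The median standard error of a log2 change was 0.12.

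The balance of rises and falls depended on the size of the change and on the scaling. At 2-fold or more, 1441 genes rose (5.58% of those tested) and 1341 fell (5.19%). At 4-fold or more, 252 rose and 270 fell. At 8-fold or more, 56 rose (0.217%) and 83 fell (0.321%), and at 32-fold or more 7 rose and 17 fell. Rises thus made up 61.5% of all called genes and 29.2% of those changed 32-fold or more. At 2-fold or more, 216 of the falls were tested only because of their 2 h libraries, against 5 rises tested only through 4 h. Such genes were not taken out of the counts at any fold, and their part in the balance at larger folds was not tested. Median-ratio scaling of the libraries lowered the median log2 change of all genes from 0.09 to 0.01 and gave 6431 rises and 6123 falls, with 51.2% of the called genes higher. Falls then outnumbered rises at 2-fold or more, 1506 against 1213, and at 8-fold or more there were 48 rises and 85 falls.

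**Figure D1:**
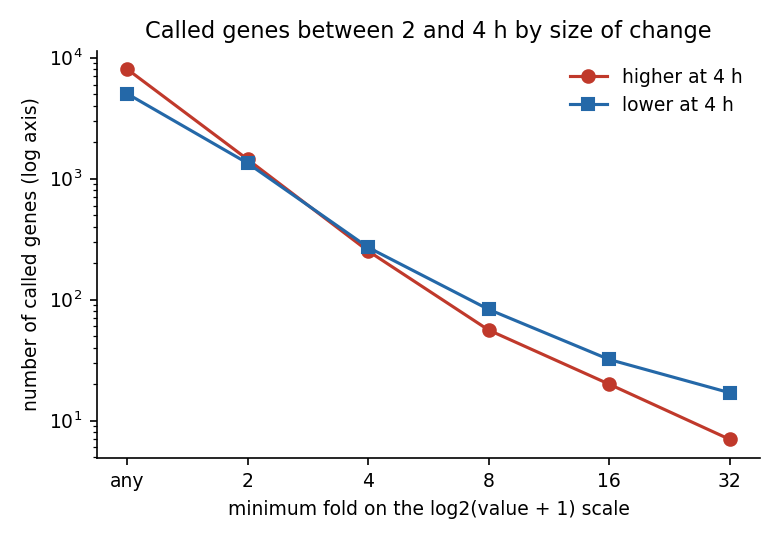
Number of genes called higher (circles) or lower (squares) at 4 h than at 2 h, on a log axis, against the minimum fold on the log2(value + 1) scale. With no minimum fold, rises outnumber falls, 8031 against 5034, and falls outnumber rises from 4-fold upward, with 17 against 7 at 32-fold. Genes tested through 1 harvest alone are included, 216 of the 1341 falls and 5 of the 1441 rises at 2-fold.

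Genes that changed 2-fold or more were mostly of low to moderate level. Those that rose had a median mean value of 2.01 at 2 h and 8.23 at 4 h, and those that fell had 7.68 at 2 h and 1.56 at 4 h. At the harvest where they were higher, 647 of the rising genes reached a mean of 10, 89 reached 100 and 5 reached 1000. Of the falling genes, 555 reached a mean of 10, 111 reached 100 and 4 reached 1000. The mean at the other harvest was at 0.1 or less for 207 of the rising and 254 of the falling genes.

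Entry into the test was uneven between the 2 harvests. A gene was tested if it stood at 1 or more in at least 3 of the 12 libraries, and 288 genes met this through the 3 libraries at 2 h alone, against 24 through those at 4 h alone. Such genes had to differ. They supplied 216 of the 1341 falls of 2-fold or more and 5 of the 1441 rises, which leaves 1125 falls and 1436 rises that did not enter in this way. At the border of this filter, 1073 genes stood at 1 or more in exactly 3 libraries, with a median mean value of 0.73, and 851 genes in exactly 2 libraries, with 0.58, were left out.

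**Figure D2:**
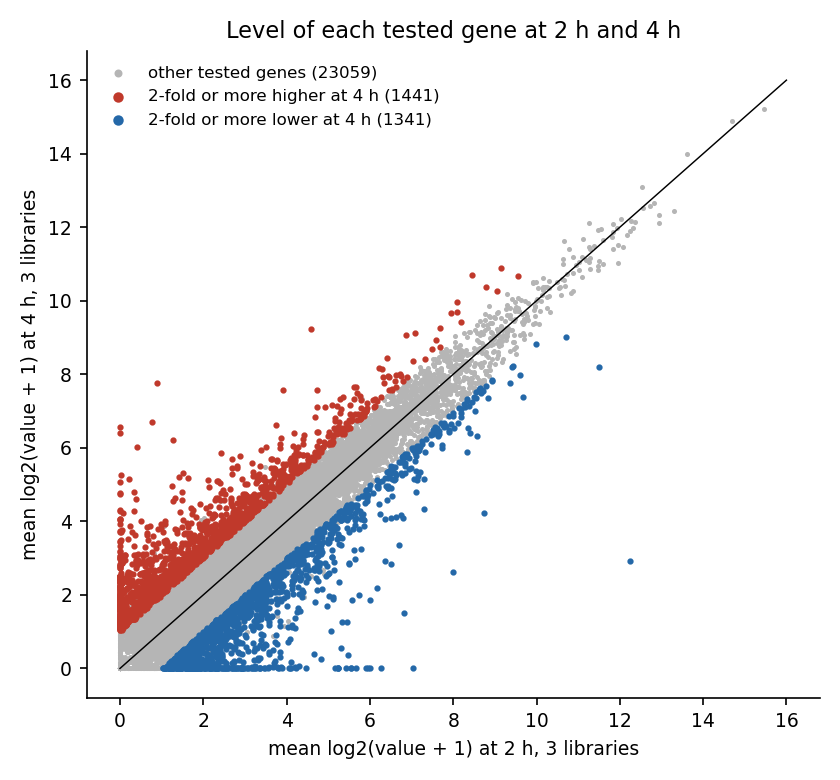
Mean log2(value + 1) over 3 libraries at 2 h (horizontal axis) and at 4 h (vertical axis) for each of 25841 tested genes, with the line of equal level. The 1441 genes called 2-fold or more higher lie above the line in red, the 1341 lower ones below it in blue, and points along either axis are genes near 0 at 1 of the 2 harvests.

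Abundant genes were called more often than rare ones, 79% of the 100 highest and 83% of the next 900 against 40.5% of the lowest group. Among the 100 genes of highest mean over all libraries, 39 rose and 40 fell, or 30 and 48 with median-ratio scaling. Among the next 900, with means of 108 to 898, 409 rose and 338 fell, a majority that scaling turned to 334 and 387. In the 4000 genes that follow, 1715 rose and 942 fell, an excess that scaling narrowed to 1369 and 1220. In the 10000 after those, 3385 rose and 1807 fell, or 2628 and 2294 with scaling. The 10841 genes of lowest mean, under 4.56, had 2483 rises and 1907 falls, which scaling turned to 2070 and 2174. Changes of 2-fold or more made up 5% of the 100 most abundant genes, 11.7% of the next 900 and 9.6% of the following 4000. They made up 9.33% of the 10000 after those and 12.5% of the lowest group, where the log2(value + 1) scale understates changes.

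CTI12_AA502170 showed the largest rise on the log2(value + 1) scale. It was measured at 0.96, 1.26 and 0.43 at 2 h and at 202, 215 and 230 at 4 h. The mean value thus rose 244-fold, from 0.883 ± 0.42 (SD, n = 3) to 216 ± 13.9, with a log2(value + 1) change of 6.87 ± 0.50 SE (limma adjusted p = 1.69e-06). The libraries at 0 h were uneven, at 18.3, 3.43 and 2.75, all above those at 2 h, and at 6 h the values stayed near those at 4 h, at 238, 204 and 221. CTI12_AA400560 was at 0 in every 2 h library and stood at 102, 91 and 90.2 at 4 h. Its log2(value + 1) change was 6.57 ± 0.097 SE (limma adjusted p = 3.4e-12), a size set by the pseudocount, which ranged from 4.31 with a pseudocount of 5 to 9.88 with 0.1. It had also been at or near 0 at 0 h (0.25, 0 and 0.23) and stood at 76.8, 72.2 and 64.5 at 6 h, so that it was high at the last 2 harvests alone.

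CTI12_AA498370 showed the largest fall. Its values were 4916, 4681 and 4874 at 2 h and 7.95, 8.77 and 4.11 at 4 h, 695-fold lower in mean value (log2(value + 1) change -9.30 ± 0.243 SE, limma adjusted p = 1.02e-09). At 0 h it had been among the most abundant transcripts, at 17191, 17570 and 16856, and at 6 h it stood at 8.01, 6.94 and 4.21. Its level was thus lower at each harvest up to 4 h and stayed low. CTI12_AA204050 took another course, with 78.7, 79 and 76.6 at 0 h, 137, 130 and 123 at 2 h, and 0 in all 6 libraries at 4 and 6 h. Its log2(value + 1) change between 2 and 4 h was -7.04 ± 0.055 SE (limma adjusted p = 4e-14); the change was -10.35 with a pseudocount of 0.1 and -4.76 with 5. A listed 0 can be a failed estimate, and no fold is given against it.

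**Figure D3:**
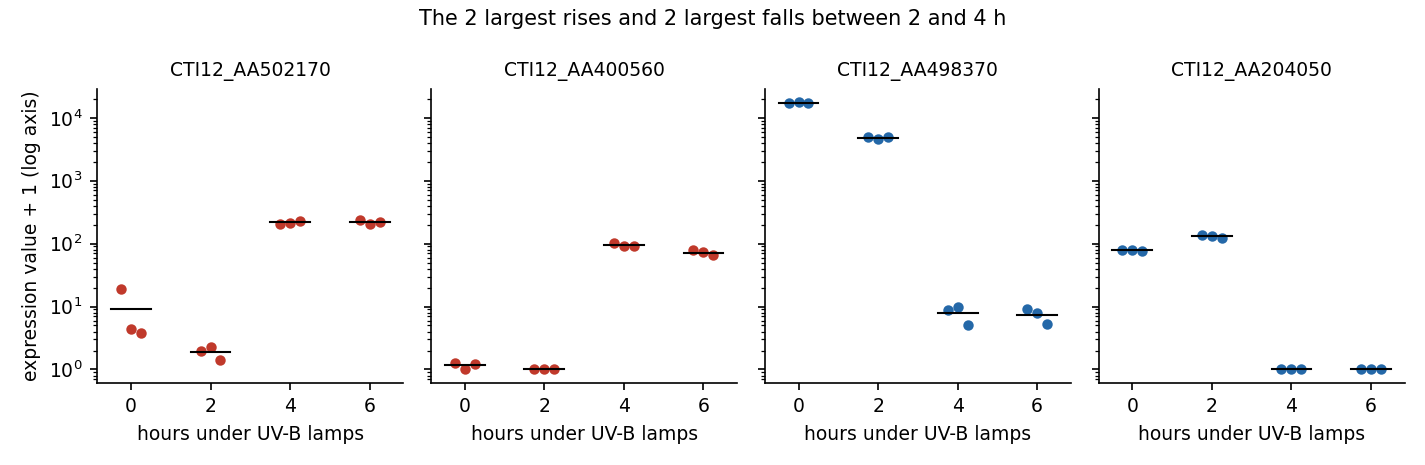
Expression value + 1 on a log axis in each of the 12 libraries (points) with the harvest mean (bar) for the 2 genes with the largest rise (red) and the 2 with the largest fall (blue) between 2 and 4 h, against hours under the lamps. The 4 genes were chosen among called genes whose libraries at 2 and 4 h do not overlap, which held for 57.7% of all tested genes. Their libraries at 6 h lie near those at 4 h, though lower for CTI12_AA400560.

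The smallest of the 20 largest rises was 4.04 on the log2(value + 1) scale, and the smallest of the 20 largest falls was -4.49. In these lists a gene is called near 0 where all 3 libraries stood at 0.1 or less and present where all 3 stood at 5 or more. Of the 20 rising genes, 11 were near 0 at 2 h, and 9 of these were listed at 0 in all 3 libraries. Their 0 h levels divided the rising genes: 6 were near 0 at 0 h, 7 were present there and 7 lay between. The rising genes therefore included both transcripts with little or no signal before 4 h and transcripts that were measured at 0 h, were lower at 2 h and were high again at 4 h. All 20 were present at 4 h and 18 were present at 6 h. The median of their mean values was 29.7 at 4 h and 29.4 at 6 h, but single genes moved in either direction. The mean went from 32.6 to 22.75 for the gene of rank 7 and from 23.4 to 36.5 for that of rank 16.

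All 20 falling genes were present at 2 h. Of the 20, 13 were near 0 at 4 h, and each of these was listed at 0 in all 3 libraries, after means of 34.95 to 130.4 at 2 h. At 6 h, 11 of the 20 were near 0. At 0 h, 14 of the 20 were present and 2 were near 0; the latter were near 0 at each harvest except 2 h. The largest group, of 9 genes, was present in the first 2 harvests and near 0 in the last 2. A gene at rank 20 with higher values showed a fall without loss, from 416, 418 and 440 at 2 h to 17.5, 16.9 and 19.4 at 4 h. In a few genes the replicates disagreed: the gene of rank 18 among the rises stood at 14.3, 15.4 and 18.1 at 4 h but at 0, 0 and 17 at 6 h (limma adjusted p = 0.0312 between 2 and 4 h).

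**Figure D4:**
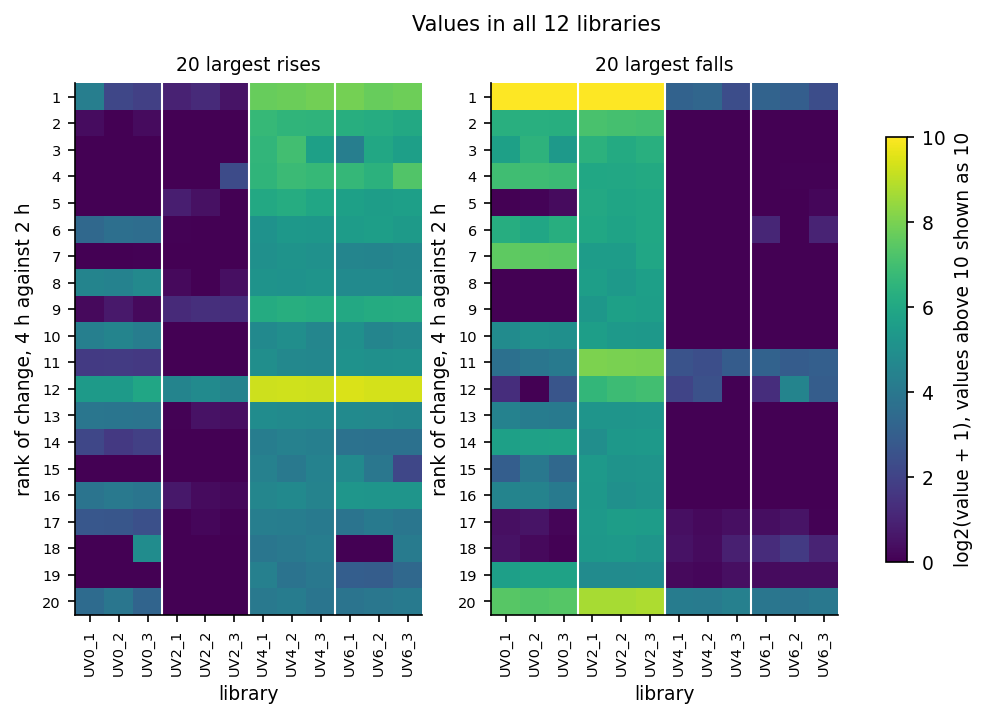
Level in each of the 12 libraries, as log2(value + 1) in colour with values above 10 shown as 10, of the 20 genes with the largest rise (left) and the 20 with the largest fall (right) between 2 and 4 h, ordered by rank. The libraries at 6 h mostly resemble those at 4 h, although some genes stand lower or higher at 6 h, such as ranks 7 and 16 of the rises. The levels at 0 h vary from gene to gene, with 7 rising and 14 falling genes present there.

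Genes that appeared or vanished between the harvests could be followed in the libraries at 0 and 6 h, which did not enter their choice. By the same limits, 31 genes went from near 0 at 2 h to present at 4 h. At 6 h, 22 of them were present, 9 lay between the limits and 0 were near 0. At 0 h, 13 of them were near 0, 12 lay between and 6 were present. In the opposite direction, 46 genes went from present at 2 h to near 0 at 4 h. At 6 h, 37 of these were near 0, 9 lay between and 0 were present, and the highest mean at 6 h was 0.7. At 0 h, 18 of the vanishing genes were present, 13 lay between and 15 were near 0. With a minimum of 20 for a present gene there were 6 that appeared and 13 that vanished.

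Among the 100 genes of highest mean, 5 changed 2-fold or more between 2 and 4 h, 3 up and 2 down, and CTI12_AA498370 was the more strongly changed of the falls. The other fall was from 2782, 2923 and 3046 at 2 h to 294, 297 and 283 at 4 h (limma adjusted p = 1.1e-12), after 1522, 1519 and 1497 at 0 h. It was lower still at 6 h, at 231, 210 and 209, so that 2 h was its highest harvest. The rise of largest size was from 311, 358 and 377 at 2 h to 1656, 1627 and 1661 at 4 h (limma adjusted p = 1.55e-10), with 1996, 1988 and 2030 at 6 h and 196, 206 and 196 at 0 h. A second rose from 585, 560 and 558 to 1851, 1907 and 1937 (limma adjusted p = 8.5e-12), having stood at 43.2, 45.8 and 45.2 at 0 h. The third rose from 769, 741 and 752 to 1635, 1620 and 1598 (limma adjusted p = 3.27e-11), from 554, 566 and 557 at 0 h. All 3 rising genes thus stood above their 0 h values at 2 h and higher again at 4 h. With median-ratio scaling these 100 genes held 3 rises and 3 falls of 2-fold or more.

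The share of expression that moved was spread over many genes. Summed over the tested genes, increases in mean value from 2 to 4 h came to 15.3% of the 2 h total and decreases to 14.9%. Over the 9 pairs of a library at 4 h with a library at 2 h, increases ranged from 15.6% to 16.2% and decreases from 14.9% to 15.9%. Between replicates of the same harvest the same sums lay between 2.73% and 5.34%, and the higher values involved replicate 1 at 2 h. Genes changed 2-fold or more carried 23.8% of the increase and 29.4% of the decrease, so 76.2% and 70.6% came from genes that changed by less or were not called. The increase was carried to 50% by 380 genes and the decrease by 425. With median-ratio scaling the increases came to 11.7% and the decreases to 17.8%. For comparison, the increases came to 23.1% of the 0 h total between 0 and 2 h and to 5.18% of the 4 h total between 4 and 6 h.

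The 5 genes that gained most summed value supplied 10.8% of the increase, and the 5 that lost most supplied 17.5% of the decrease. The largest loss was in the transcript highest in every library, which fell from 46611, 43208 and 44812 at 2 h to 38969, 38401 and 36960 at 4 h (log2(value + 1) change -0.24, limma adjusted p = 3.07e-05). CTI12_AA498370 was second in loss. The next 3 losses, of 10124 ± 40.8 (SD, n = 3) to 5567 ± 136, 7843 ± 357 to 4460 ± 51.6 and 7848 ± 593 to 5157 ± 56.5, were in genes whose means at 0 h were 4824, 1441 and 1277. All 3 were therefore at their highest measured harvest at 2 h and stayed above the 0 h mean at 4 h.

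The largest gain in summed value was small in proportion, from 25866, 26159 and 27100 at 2 h to 31272, 30105 and 29376 at 4 h, below the 0 h mean of 41842. Its log2(value + 1) change of 0.20 passed the test (limma adjusted p = 5.65e-05) but did not with median-ratio scaling (limma adjusted p = 0.0537). The second gain was in a transcript at 204 ± 6.57 (SD, n = 3) at 0 h, which rose from 11297, 13052 and 13227 at 2 h to 16596, 16060 and 16264 at 4 h (limma adjusted p = 9.08e-05). The lowest of its libraries at 2 h was replicate 1. The third gain, from 5878 ± 128 to 8825 ± 84, brought its gene to a level near the 0 h mean of 8577. The combined share of the 10 highest genes in a library was 15.8% ± 0.14 (SD, n = 3) in the 2 h libraries and 14.8% ± 0.263 in the 4 h libraries, without overlap; the exact permutation test gave its smallest possible two-sided p for 3 libraries against 3, 0.1.

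The libraries at 6 and 0 h share none with the comparison of 4 with 2 h, and the genes were followed in them, although all comparisons share an estimate of the spread of each gene. The filter also counted all 12 libraries. Genes that reached 1 only at 4 and 6 h, or only at 0 and 2 h, thus leaned 1 way in advance. They were not taken out of the shares below, and their part was not tested. Of the 1441 genes that rose 2-fold or more between 2 and 4 h, 995 (69%) were higher at 6 h than at 0 h, where 41.3% of all tested genes were. A further 109 (7.56%) were lower, where 18.5% of all genes were, and 337 (23.4%) did not pass the test, where 40.2% of all genes did not. Of the 1341 genes that fell 2-fold or more, 588 (43.8%) were lower at 6 h than at 0 h, 217 (16.2%) were higher and 536 did not pass the test. Without the 216 genes tested through the 2 h libraries alone, 574 of 1125 falling genes (51%) were lower. The median log2(value + 1) change from 0 to 6 h was 0.93 for the rising genes and -0.26 for the falling genes, beside 0.20 for all tested genes. These counts are descriptions and no test was made on the lists. With median-ratio scaling, 61.4% of the rising genes were higher at 6 h, beside 28.8% of all genes, and 51.1% of the falling genes were lower, beside 28.2%.

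At a minimum of 2-fold in both comparisons, 680 genes were higher at 4 h than at 2 h and at 6 h than at 0 h. These are 47.2% of the rises between 2 and 4 h and 22.6% of the 3009 rises between 0 and 6 h, which took in 11.6% of tested genes. In the other direction 351 genes were shared, 26.2% of the falls between 2 and 4 h and 28% of the 1254 falls between 0 and 6 h, which took in 4.85% of tested genes. Genes changed 8-fold or more between 2 and 4 h leaned further. Of the 56 rising genes, 47 (83.9%) were higher at 6 h than at 0 h, 2 were lower and 7 did not pass the test. Of the 83 falling genes, 50 (60.2%) were lower, 2 were higher and 31 did not pass. Over all tested genes, 41.3% were higher and 18.5% lower. Genes tested through 1 harvest alone were not taken out here.

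**Figure D5:**
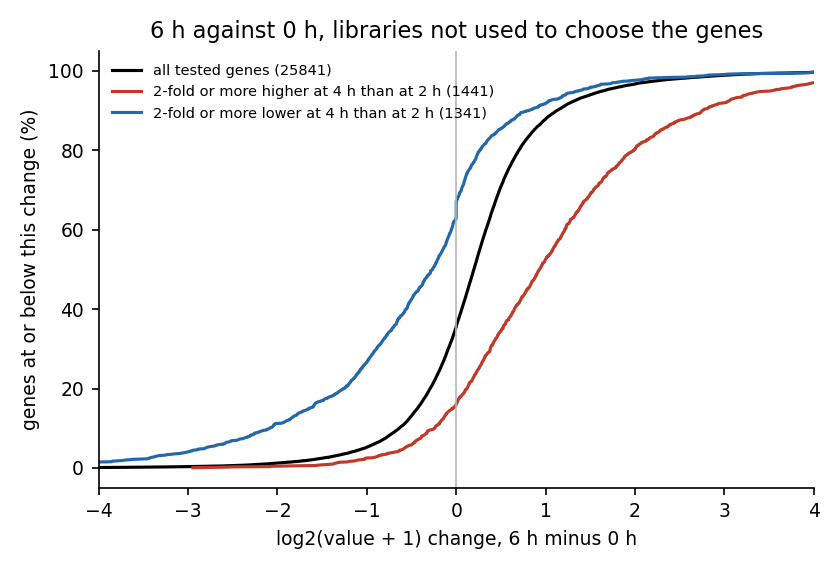
Cumulative share of genes, in percent, by log2(value + 1) change from 0 to 6 h for all 25841 tested genes (black), the 1441 that rose 2-fold or more between 2 and 4 h (red) and the 1341 that fell (blue). The red curve lies to the right of the black with a median of 0.93 and the blue to the left with a median of -0.26; the step in the blue curve at 0 comes from genes with equal values at both harvests.

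The median level at 0 h lay between those at 2 and 4 h for rising and for falling genes. On the log2(value + 1) scale, the median level of the rising genes was 1.57 at 2 h and 3.19 at 4 h, with 1.99 in the 0 h libraries and 3.04 in those of 6 h. For the falling genes it was 3.08 at 2 h and 1.31 at 4 h, with 2.18 in the 0 h libraries and 1.56 in those of 6 h. The intervals before and after share libraries with the one that chose the genes, which by itself favours an opposite change in them, so their values are given as a description. The median log2(value + 1) change from 0 to 2 h was -0.28 for the rising and 1.02 for the falling genes, and from 4 to 6 h it was -0.16 and 0.05.

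Gene by gene, the 6 h level was mostly on the side of 4 h and the 0 h level was divided. Genes tested through 1 harvest alone are left out of these positions, as the filter fixes them, which leaves 1436 rising and 1125 falling genes. Genes that reached 1 only at 4 and 6 h, or only at 0 and 2 h, were kept. The filter can favour their positions too, and their part in these shares was not tested. Of the rising genes, 1335 (93%) had a 6 h level nearer to that at 4 h than to that at 2 h, and of the falling genes 1045 (92.9%), beside 73.3% of all tested genes. The 0 h level was nearer to 4 h for 496 (34.5%) of the rising genes and nearer to 2 h for 940, beside 45.1% nearer to 4 h among all tested genes. For 502 rising genes the 0 h level lay below both harvests, for 764 between them and for 170 above both. Among falling genes the 0 h level was nearer to 4 h for 588 (52.3%) and nearer to 2 h for 537. It lay above both harvests for 221 of them, between for 600 and below both for 304. These positions are descriptions, and the choice of genes by their change between 2 and 4 h widens the gap between these 2 harvests.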

How the data were processed

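Leaf RNA was sequenced in 12 libraries at 4 harvests. The authors deposited normalised expression signal per gene, rounded to 2 decimals, for 63226 identifiers, of which 21712 are at 0 throughout. The values may be TPM or FPKM, and depth is unknown. Per the submitters' processing notes, HISAT2 2.1.0, DESeq and Salmon were used, with no role stated; for the genome build, none is given in the sources used here. Columns of other samples numbered 0.

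Values were taken as log2(value + 1). Genes at 1 or more in at least 3 libraries were fitted with limma 3.58.1 (R 4.3.3; trend, robust) over all 12 libraries in 4 groups without a replicate term, and the contrast of 4 h with 2 h was tested two-sided at a Benjamini-Hochberg adjusted p of 0.05. The procedure was tried on simulated data with changes planted only in genes away from 0, so planted changes in genes near 0 were not tried. Named genes were the 2 largest rises and 2 largest falls among called genes without overlap; others are given by rank with no identifier. The comparison, lists and groupings were chosen with earlier results of these data known. Gene lists by pathway and marker genes could not be used without names. Folds of single genes are ratios of means. Alternatives were other pseudocounts, scaling, filter, fits and libraries left out.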

Additional observations from a re-analysis of the deposited data

How the results depend on the processing

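The 2-fold counts rest on the pseudocount: with 0.1 there were 2222 rises and 1860 falls between 2 and 4 h, and with 5 there were 482 and 476. At 8-fold or more these were 380 and 421 with 0.1, and 9 and 20 with 5. With a pseudocount of 5, 373 of the rising genes (77.4%, beside 40.7% of all genes) were higher and 217 of the falling genes (45.6%, beside 18.6%) lower at 6 h than at 0 h, fewer genes but larger shares than with 1. A minimum of 20 for a present gene gave 6 genes that appeared and 13 that vanished. Median-ratio scaling turned the difference in genes at 1 or more to -211. Without each library at 2 or 4 h in turn, 7089 to 7921 genes rose and 4539 to 4729 fell, with 1431 to 1483 and 1316 to 1357 at 2-fold or more, and each time at least 91.8% of the 2-fold rises and 92.1% of the 2-fold falls called with all libraries were kept. Without replicate 1 at 2 h, 7921 genes rose and 4539 fell. With the replicate block there were 7812 rises and 4917 falls, 1436 and 1341 at 2-fold or more. Same-numbered libraries at 2 and 4 h deviated together at r = -0.019 to 0.038, and differently numbered ones at r = -0.034 to 0.037. No pairing by number was seen, but these values cannot show whether the mixes were paired by design. The 4 named genes passed the test in the same direction under each of 13 alternatives. They were chosen for the largest changes in these same libraries, so this is no independent support. Libraries left out and scaling were tried after seeing the data for the summed values, for genes that appeared or vanished and for the summary values of libraries. Unknown depth limits every statement on genes listed at 0.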

Other observations

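Entry into the test through a single harvest was frequent at the first 2 harvests and rare at the last 2. Genes at 1 or more in all 3 libraries of a harvest and in no other library numbered 245 for the 0 h harvest, 288 for 2 h, 24 for 4 h and another 24 for 6 h. Among the 24 measured in this way at 4 h alone, 5 were called 2-fold or more higher than at 2 h. Of the 288 at 2 h alone, 216 were called 2-fold or more lower at 4 h. Over all tested genes, 5.58% were 2-fold or more higher and 5.19% lower. The filter fixed the direction of these single-harvest genes in advance, so their calls are a description only.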
